A study of Macaca fascicularis with 16 samples.

Results

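The endometrium of postmenopausal female cynomolgus macaques given tamoxifen alone was compared with that of animals given estradiol alone, on 8 of the 16 arrays of the study. The 4 arrays titled Tamoxifen and the 4 titled Estradiol were taken by their titles. Platform controls and the 40% dimmest of the other probe sets were left out, and the remaining 31660 entered the test. Genes are named where the platform gives a probe set 1 symbol. All animals were Macaca fascicularis, randomized to parallel arms and sampled after 4 months, and their ages are not given in the sources used here. The diet of the estradiol arm held 0.25 mg of micronized estradiol per 1800 kcal. The tamoxifen arm received tamoxifen at 20 mg per 1800 kcal and no estradiol. A placebo arm (control) and an arm given both drugs at these doses (the combination), with 4 animals each, supply background levels and part of the estimate of spread. Each drug was given at a single dose and the doses differ, so no dose-matched comparison of the compounds can be made.

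Estradiol, the main ovarian estrogen, is a steroid that binds the estrogen receptors, which then switch target genes on or off with the help of coactivators and corepressors. Tamoxifen is a nonsteroidal triphenylethylene that binds the same receptors and places their ligand-binding domain in another shape, so that it opposes estrogen in some tissues and acts like a weak estrogen in others. In the endometrium estrogen is known for driving the division of gland and stroma cells, and tamoxifen is known there for partial estrogen-like activity.

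Each array holds RNA of 1 animal hybridised to a 1-colour Affymetrix array designed for the rhesus macaque, a close relative. A value is a signal intensity, with a mean of 250.0 on every array after trimming 2% at each end, so it is relative to the rest of the array, and levels of different probe sets cannot be compared. Changes are differences of mean log2(signal + 4.80), tamoxifen minus estradiol, with the standard error (SE) from limma; this scale understates changes of dim genes. Array medians ran from 58.6 to 70.2, and arrays of the estradiol and tamoxifen arms correlated at a median r of 0.947 over probe sets, against 0.945 within the estradiol arm and 0.955 within the tamoxifen arm. Signals of tissue markers are given as description and cannot check the tissue label, as no other tissue was measured. HOXA11, a homeobox gene of the uterus, had signals of 2861 to 3605 with estradiol and 2290.3 to 2594 with tamoxifen. The epithelial keratin gene KRT8 had 213 to 593 and 111 to 451. Estradiol 4 stood apart in its smooth muscle score, and tamoxifen 1 was the lowest of its arm in it, as given below. Ratios of signal at the 3' end to signal at the 5' end of control transcripts, a sign of RNA integrity, differed on the log2 scale between the arms by -0.050 for actin, -0.0071 for GAPDH and -0.077 for EF1a. In two-sided exact permutation tests the adjusted p was 0.914, 0.914 and 0.171, where the smallest unadjusted p that 4 against 4 arrays allow is 0.0286.

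Of 31660 probe sets tested, 180 passed an adjusted p of 0.05 in limma, 133 lower and 47 higher with tamoxifen. Among 10706 genes, each followed through its brightest probe set, 60 were lower with tamoxifen, 0.56% of those tested, and 16 were higher, 0.149%, which makes 76 genes or 0.71% in either direction. The 4 tamoxifen arrays lay wholly below the 4 estradiol arrays in 487 genes, 4.55% of those tested, and wholly above in 275, 2.57%. The genes that were lower included genes of mitosis and DNA replication, the collagen enzyme gene LOXL2 and the leukocyte adhesion gene VCAM1. Those that were higher included NPY, CXCL17, WNT11 and CFD. The median change over all genes was -0.027, and the 95% interval of a gene's change reached a median of 0.36 to each side. These intervals are per gene and are not adjusted for the number tested. At an unadjusted p of 0.05, 985 of the 10706 genes were lower and 575 higher, the background for such counts in the lists below. With 0.71% of genes passing, 0 calls in a list of few genes does not set it apart.

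These calls depended on single arrays. Leaving out estradiol 1, 2, 3 or 4 gave 0, 31, 279 and 4 genes, and leaving out tamoxifen 1, 2, 3 or 4 gave 144, 2, 2 and 19. With estradiol 1 left out, limma's smallest adjusted p was 0.0582, and 736 genes were lower and 417 higher at an unadjusted p of 0.05, against 985 and 575 with all arrays. A fit to the 8 arrays alone also called 0 genes, with a smallest adjusted p of 0.0707 and 818 and 466 genes at an unadjusted p of 0.05. Of the 57 called genes named here, 0, 20, 55 and 3 kept their call without estradiol 1 to 4, and 53, 2, 2 and 14 without tamoxifen 1 to 4 (of 56 tested without estradiol 1). WNT11 and VCAM1 kept it in 7 of these 8 fits, failing without estradiol 1, and the others in at most 4. Their direction was the same in every such fit that tested them.

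**Figure D1:**
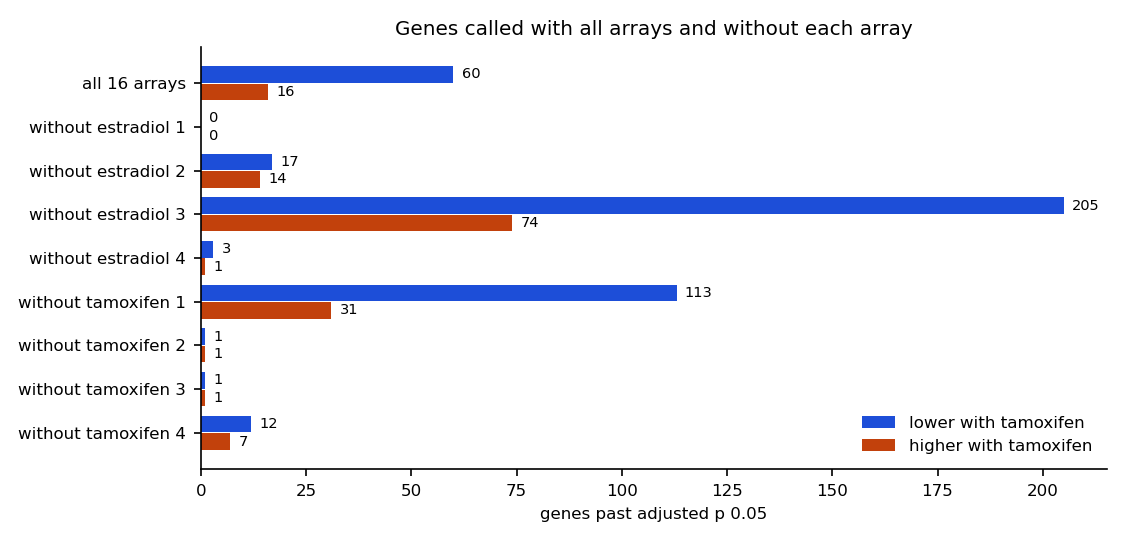
Bars give the number of genes past an adjusted p of 0.05 (horizontal axis), lower with tamoxifen in blue and higher in orange, with all 16 arrays in the fit and with 1 estradiol or tamoxifen array left out. The count of lower genes runs from 0 without estradiol 1 to 205 without estradiol 3, around 60 with all arrays.

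VCAM1 and WNT11 had the smallest adjusted p of the named genes. VCAM1 encodes a cell adhesion molecule that binds leukocyte integrins. Its signal was 921, 566, 816 and 851 in estradiol 1 to 4 and 219, 246, 226 and 269.8 in tamoxifen 1 to 4, and the lowest estradiol array was above the highest tamoxifen array. The change was -1.68 (SE 0.20, limma adjusted p = 0.0144), a 3.20-fold lower level with tamoxifen. The controls lay between the arms, at 373 to 441, with estradiol 0.93 above control on the log2 scale (adjusted p = 0.00401) and tamoxifen at -0.75 (adjusted p = 0.0245). Without estradiol 1 the adjusted p of the tamoxifen to estradiol change was 0.0582.

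WNT11 encodes a secreted WNT ligand known mainly for signalling without beta-catenin. In the estradiol arm its signal was 61.9, 53.7, 72.1 and 65.3, and in the tamoxifen arm 227, 135, 329.9 and 245, with no overlap. WNT11 was 3.37-fold higher with tamoxifen, a change of 1.75 (SE 0.22, limma adjusted p = 0.0151). The controls again lay between, at 95.1 to 126; estradiol was at -0.68 against them (adjusted p = 0.0358) and tamoxifen at 1.07 (adjusted p = 0.00719). The combination arrays had 98.1 to 155. Without estradiol 1 the adjusted p of WNT11 was 0.0598. Among 28 measured WNT ligands, receptors and antagonists, WNT11 rose, TCF7, a transcription factor of the WNT pathway and of T cells, fell by 1.35 on the log2 scale, and 26 did not pass, where 0.149% of all genes rose and 0.56% fell.

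**Figure D2:**
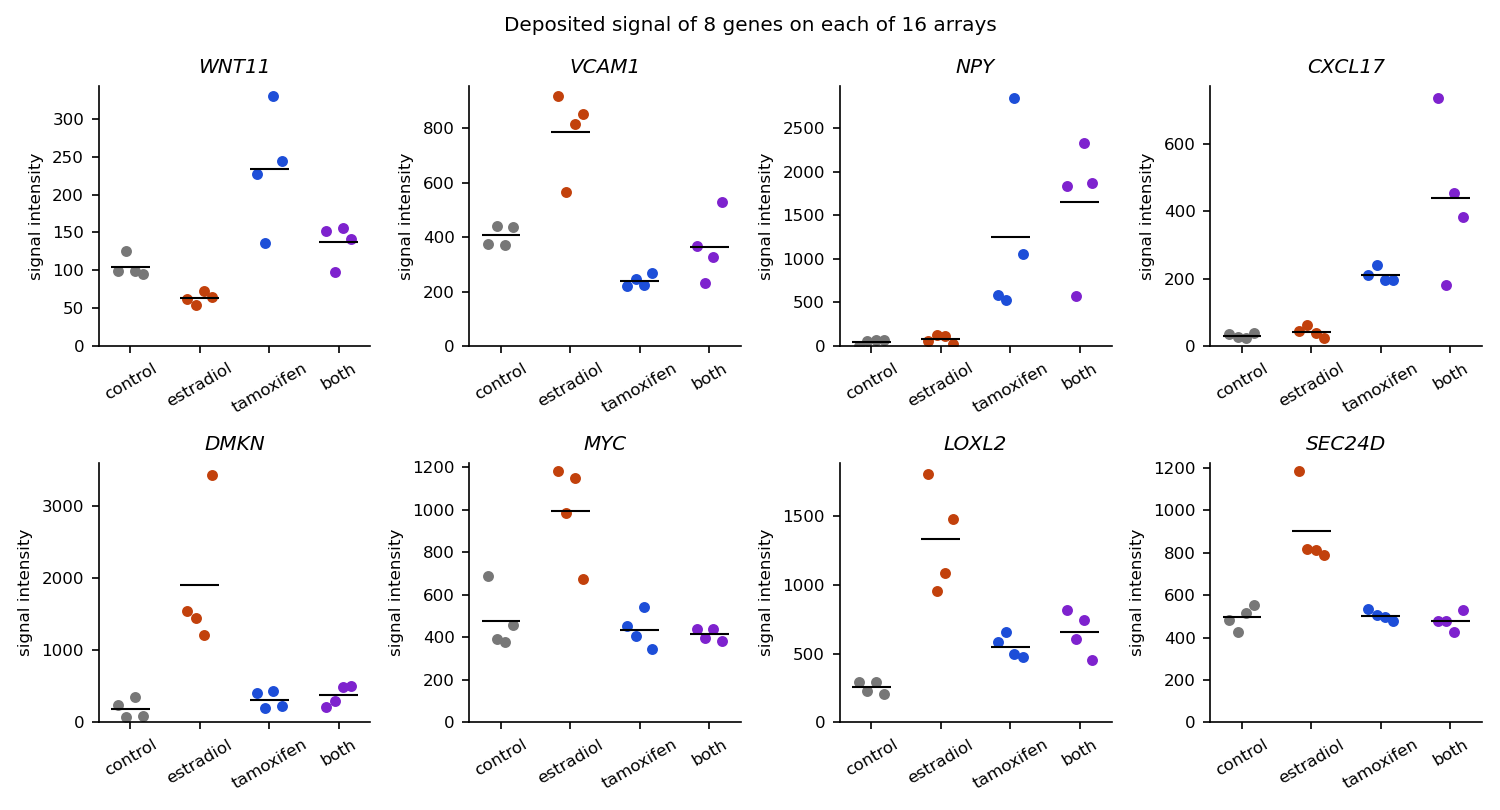
Each panel plots the deposited signal intensity (vertical axis, linear, from 0) of 1 gene on the 4 arrays of each arm, with a bar at the arm's mean; both is the combination. In VCAM1 and WNT11 the controls lie between the estradiol and tamoxifen arrays, whereas DMKN and SEC24D have tamoxifen arrays within or near the control range.

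Of the 47 gene lists, mitosis held the most calls. Of 30 measured, 8 fell (26.7%, against the 0.56% of all genes), 0 rose and 22 did not pass, and the list's median change was -0.96. The values of 28 of the 30 were below 0, and in 11 the tamoxifen arrays lay wholly below the estradiol arrays (36.7%, against 4.55% of all genes). Chromosome segregation and spindle genes made up most of the calls. MKI67, which encodes a proliferation antigen of cycling cells, had signals of 167, 143, 70.2 and 161 with estradiol and 62.4, 34.6, 25.5 and 45.6 with tamoxifen. Estradiol 3 was the lowest of its arm and still above every tamoxifen array. MKI67 changed by -1.57 (SE 0.28, limma adjusted p = 0.0289), and the controls had 31.0 to 54.1.

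ZWINT, a kinetochore protein gene, showed the largest fall of the list at -2.31 (SE 0.44, limma adjusted p = 0.0304). ZWINT had 593, 369.8, 137 and 308 with estradiol and 136, 32.3, 39.7 and 65.3 with tamoxifen, so tamoxifen 1 came within 1 signal unit of estradiol 3. The kinesin motor genes KIF23 and KIF2C fell by 1.75 and 1.57 on the log2 scale, the centromere gene CENPF by 1.72, and the condensin genes NCAPG and SMC2 by 1.54 and 0.78. KIF4A, another chromosome motor, fell by 1.50 although its arms overlapped, with 142, 138, 58.6 and 129 against 61.2, 26.4, 27.7 and 36.6. TOP2A, the topoisomerase of dividing cells, had the lowest value of the list at -2.57 (95% interval -3.95 to -1.20) and did not pass (limma adjusted p = 0.0944). Its signals spread widely, 473, 479.7, 128 and 489 with estradiol and 145, 21.9, 20.2 and 117 with tamoxifen, and estradiol 3 lay below tamoxifen 1. The cyclin genes CCNB1 and CCNB2, the kinase gene CDK1 and the mitotic transcription factor gene FOXM1 had -1.51, -2.10, -1.85 and -1.74, with adjusted p of 0.0699, 0.0735, 0.0536 and 0.0505.

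The mitosis count moved with the arrays: it was 0, 1, 18 and 0 without estradiol 1 to 4, 14, 0, 0 and 2 without tamoxifen 1 to 4, and 6 without estradiol 4 and tamoxifen 1 together. The count also moved with the processing. It was 16 with array weights in limma and 2 with a filter on the 60% dimmest probe sets, where the lost genes were not tested. The mitosis score, the mean over the 30 genes of the log2 deviation from each gene's mean over 16 arrays, was 1.08, 0.80, 0.37 and 0.97 in estradiol 1 to 4 and 0.081, -0.63, -0.46 and 0.041 in tamoxifen 1 to 4. The arms did not overlap, and the arrays nearest to each other were estradiol 3 and tamoxifen 1. The controls scored between -0.56 and -0.42 and the combination between -0.21 and 0.043. The standard deviation of the score was 0.31 with estradiol and 0.36 with tamoxifen, against 0.066 in the controls and 0.11 in the combination. The SE, adjusted p and intervals rest on a spread pooled over all 4 arms, so they can understate the spread of these 2 arms. A fit to the 8 arrays alone called 0 mitosis genes. Other cell division genes outside the list also fell. CKAP2 and TACC3, which act on spindle microtubules, changed by -1.95 and -1.54, GTSE1 by -1.10 and the centromere gene CENPN by -1.27. The minus-end motor gene KIFC1 changed by -0.77, BORA, an activator of mitotic kinases, by -0.72, and the transcription factor gene MYBL2, with tamoxifen 1 above estradiol 3, by -1.37. In bulk tissue, fewer dividing cells and less RNA per cell cannot be told apart.

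**Figure D3:**
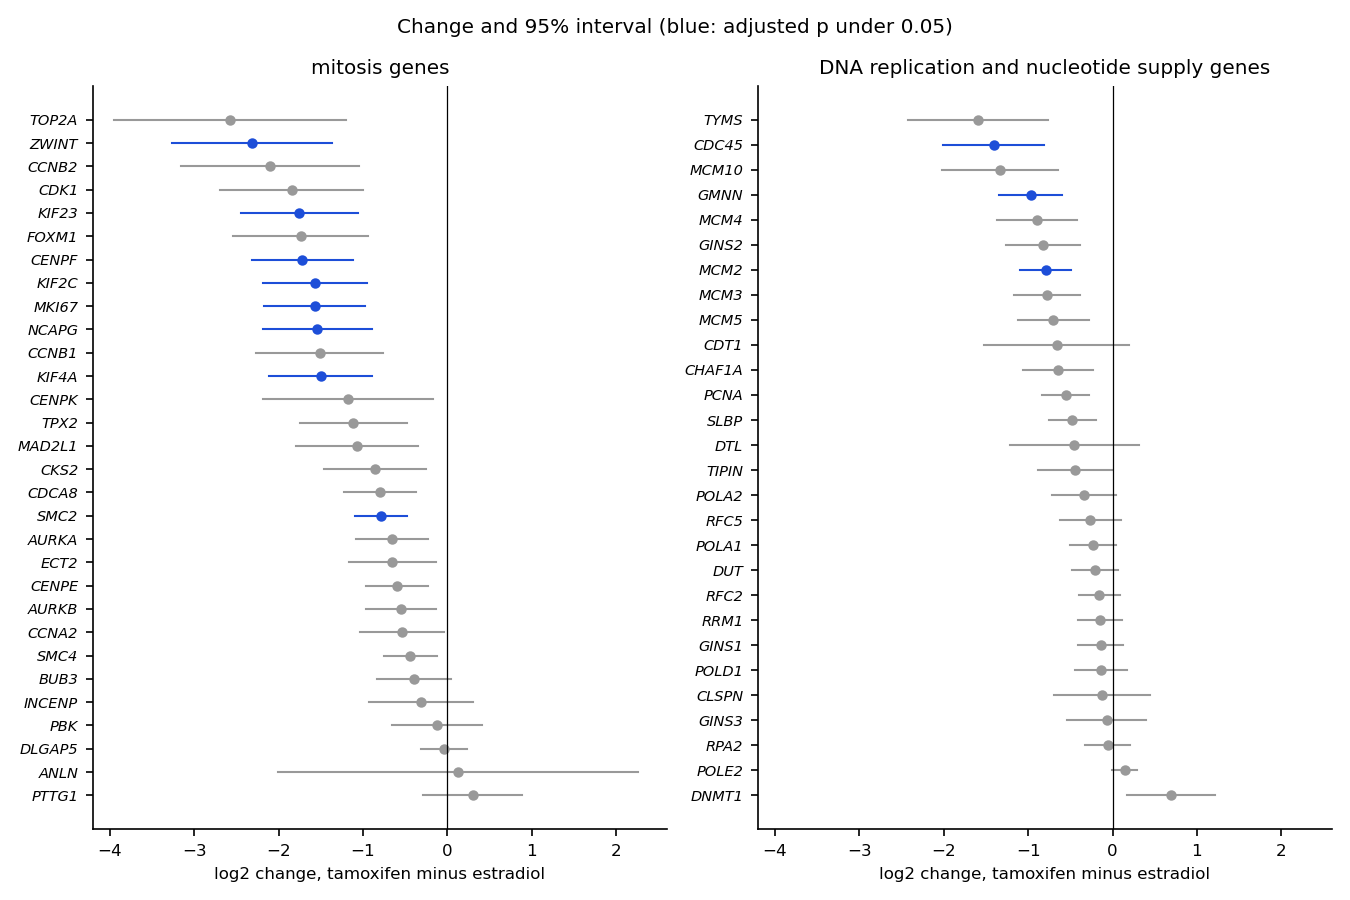
Points give the log2 change, tamoxifen minus estradiol (horizontal axis), of each measured gene of the mitosis list and of the DNA replication list, with the 95% interval as a line; blue marks an adjusted p under 0.05. Most mitosis genes lie below 0, and 8 of 30 are blue, against 3 of 28 replication genes.

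DNA replication genes showed smaller differences. Of 28 measured, 3 fell (10.7%, against 0.56% of all genes), 0 rose and 25 did not pass. The median was -0.45, and 26 values were below 0, as were 54.3% of all genes. CDC45, a helicase component that unwinds the origin, had 99.9, 129, 56.0 and 78.9 with estradiol and 46.4, 19.9, 35.5 and 23.4 with tamoxifen, without overlap. CDC45 fell by 1.41 (SE 0.28, limma adjusted p = 0.0343). GMNN, which encodes the licensing inhibitor geminin, fell by 0.97, and MCM2, a subunit of the replicative helicase, by 0.79. TYMS, the thymidylate synthase gene, had -1.59 and did not pass (adjusted p = 0.0845), with estradiol 3 at 124 and tamoxifen 1 at 163. Without estradiol 3 the list had 11 genes that fell, without tamoxifen 1 it had 8, and without any other single array of these arms it had 0.

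Of 19 genes of G1 control, MYC and E2F2 fell (10.5%, against 0.56% of all genes) and 17 did not pass. MYC, a growth-promoting transcription factor gene, had 1179, 983, 1146 and 673 with estradiol and 453, 404, 542 and 346 with tamoxifen. All 4 estradiol arrays lay above all tamoxifen arrays, and the change was -1.17 (SE 0.20, limma adjusted p = 0.0289). Against the controls, at 376 to 687, estradiol stood at 1.06 (adjusted p = 0.00172) and tamoxifen at -0.10 (adjusted p = 0.778). E2F2, a transcription factor gene of S phase entry, had 123, 121, 75.0 and 122 with estradiol and 40.3, 38.9, 38.3 and 51.9 with tamoxifen and changed by -1.27 (SE 0.19, limma adjusted p = 0.0247). SKP2, which marks a cell cycle inhibitor for degradation, fell by 1.03, while its 3 probe sets ranged from -1.03 to -0.40. CCND1, the cyclin D1 gene, did not pass at 0.16 (95% interval -0.35 to 0.68). Its signals were 289, 260.3, 311 and 319.9 with estradiol and 276, 381, 232 and 485 with tamoxifen, so the estradiol arrays lay within the range of the tamoxifen arrays. Cyclin E2 (CCNE2) had -0.94 with an adjusted p of 0.0568.

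LOXL2, a lysyl oxidase that cross-links collagen, had 1806, 952, 1082 and 1478 with estradiol and 583, 654, 493 and 471 with tamoxifen, without overlap. LOXL2 changed by -1.23 (SE 0.21, limma adjusted p = 0.0289); against controls of 206 to 296 it stood at 2.33 with estradiol (adjusted p = 1.63e-05) and 1.10 with tamoxifen (adjusted p = 0.00482). COL15A1, a basement membrane zone collagen gene, fell by 0.52 through its brightest probe set and had -0.028 in the other. These were the 2 of 28 collagen and collagen enzyme genes that fell (7.14%, against 0.56% of all genes); 0 rose, and the median was -0.32. PCOLCE, which enhances procollagen cleavage, fell by 1.02, and FKBP10, a collagen chaperone gene, by 0.59. COL1A1, the main fibrillar collagen gene, had -0.70 (95% interval -1.20 to -0.19, adjusted p = 0.213).

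The secreted metalloprotease gene ADAMTS19 had 1789, 1401, 1016 and 1411 with estradiol and 539, 342, 379 and 396 with tamoxifen. The arms were well apart, a change of -1.74 (SE 0.28, limma adjusted p = 0.0247), and its other probe set had -1.60. ADAMTS7 and ADAMTS4, of the same family, fell by 1.23 and 1.00, the latter with -0.40 in its other probe set. Among 31 matrix glycoprotein and proteoglycan genes 0 passed in limma, with a median of -0.22. At an unadjusted p of 0.05, 9 were lower and 2 higher, against 985 and 575 of all 10706 genes. Fibronectin (FN1) had signals of 5894, 3874, 3715 and 6955 with estradiol and 2145, 1747, 1412 and 2608 with tamoxifen, which do not overlap, and -1.35 with an adjusted p of 0.0614. Tenascin-C (TNC) and the TGF beta induced adhesion gene TGFBI had -1.32 and -1.66, with adjusted p of 0.166 and 0.138. The stromal protease gene MMP11 had -1.84 (adjusted p = 0.0648), the lowest value of 24 matrix protease genes, of which 0 passed, with 3 lower and 3 higher at an unadjusted p of 0.05.

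Of 24 genes of the unfolded protein response and ER folding, SEC24D and PDIA6 fell (8.33%, against 0.56% of all genes) and 22 did not pass, with a median of -0.14. SEC24D, a coat subunit of the vesicles that carry cargo such as procollagen out of the endoplasmic reticulum, had 1188, 819.8, 812 and 788 with estradiol and 535, 505, 495 and 477 with tamoxifen. The tamoxifen arrays were within the range of the controls, 428 to 553, and the change from estradiol was -0.82 (SE 0.13, limma adjusted p = 0.0247). PDIA6, a disulfide isomerase gene, fell by 0.50 (adjusted p = 0.0447).

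Epithelial and mucosal genes moved in both directions. DMKN encodes dermokine, a secreted protein of stratified epithelia. Its signal was 1547, 1444, 1204 and 3429 with estradiol and 411, 205, 431 and 221 with tamoxifen, with controls at 77.1 to 351. DMKN was 5.74-fold lower with tamoxifen, a change of -2.52 (SE 0.46, limma adjusted p = 0.0289), the lowest of the genes that passed. IL1A, the gene of the cytokine interleukin-1 alpha, had 305, 123, 88.5 and 90.0 with estradiol and 45.2, 27.9, 42.0 and 14.3 with tamoxifen and changed by -1.98 (SE 0.39, limma adjusted p = 0.0341). Without estradiol 1, its highest array, IL1A was among the 40% dimmest probe sets and was not tested. DMKN and IL1A belong to a list of 12 measured squamous epithelium genes. Of that list these fell (16.7%, against 0.56% of all genes), 0 rose and 10 did not pass. Neither encodes a keratin or an envelope protein of squamous cells. In that list the connexin gene GJB6 and the galectin gene LGALS7B had values of 2.09 and 1.39, with adjusted p of 0.247 and 0.353 and arrays that overlapped.

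CXCL17, a chemokine gene of mucosal epithelia, was the 1 of 18 mucous and secretory genes that passed, and it rose, as did 0.149% of all genes. Signals were 45.3, 61.1, 39.3 and 23.9 with estradiol and 211, 239, 196 and 195 with tamoxifen, and the tamoxifen arrays lay close together. The change was 2.25 (SE 0.33, limma adjusted p = 0.0247), 4.75-fold. The controls, 24.2 to 38.1, were near the estradiol arrays, which stood at 0.36 against them (adjusted p = 0.460), and the combination arrays had 181 to 737. The protease inhibitor gene SLPI and the lysozyme gene LYZ had 1.64 and 1.28, and DMBT1, a mucosal scavenger receptor gene, -1.62. None of these 3 passed, with adjusted p of 0.184, 0.265 and 0.134. DMBT1 signals were 5382, 2487, 1976 and 1427 with estradiol and 1343, 1263, 627 and 391 with tamoxifen, against 58.3 to 141 in the controls. The mucous list's median was 0.38, and its score was highest in tamoxifen 1, at 1.07.

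NPY, which encodes the sympathetic transmitter neuropeptide Y, had the largest change of all genes that passed. Signals were 62.1, 130.4, 113 and 18.9 with estradiol and 587, 532, 2846 and 1059.8 with tamoxifen, so that tamoxifen 3 was highest and the arms did not overlap. NPY was 13.98-fold higher with tamoxifen, a change of 3.81 (SE 0.76, limma adjusted p = 0.0364), and its adjusted p ran from 0.0241 to 0.141 with 1 array left out. The combination arrays had 574 to 2338 and the controls 2.30 to 64.6. Of 9 measured nerve and Schwann cell genes it was the only call, where 0.149% of all genes rose, and the list's median was -0.027.

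The other genes that rose fall into several kinds. NGEF and NET1 had changes of 1.44 and 0.75. NGEF signals were 54.7, 70.5, 38.5 and 53.6 with estradiol and 143, 124, 194 and 157 with tamoxifen, without overlap (SE 0.26, limma adjusted p = 0.0289). CFD, complement factor D, rose by 1.70 with overlapping arms, 598, 1944, 786 and 1678 against 6049, 1864, 4140.0 and 3722, and its adjusted p was 0.0456; it was the 1 of 11 complement genes that passed, where 0.149% of all genes rose. The semaphorin gene SEMA6D and the large cadherin gene DCHS2 rose by 1.08 and 0.93, the sialyltransferase gene ST3GAL5 by 0.89 and the galactosyltransferase gene B4GALT1 by 0.63. The death-associated kinase gene DAPK1, the G protein subunit gene GNG11, the receptor sorting gene GPRASP1, the coenzyme Q gene COQ8A and SPATS2L rose by 0.91, 0.75, 0.62, 0.59 and 0.59.

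For SEMA6D and DUSP1 the controls lay near or above the tamoxifen arrays. SEMA6D signals were 187, 261, 176 and 146 with estradiol, 476, 395, 450.0 and 309 with tamoxifen and 370.4 to 607 in the controls. Estradiol stood at -1.29 against control (adjusted p = 0.000435) and tamoxifen at -0.21 (adjusted p = 0.516). DUSP1, a phosphatase gene that switches off MAP kinases, had 1246, 1644, 1442 and 1277 with estradiol, 1901, 2617, 2829 and 2754 with tamoxifen and 2586 to 3878 in the controls, and rose by 0.84 (SE 0.16, limma adjusted p = 0.0329) from estradiol to tamoxifen. DUSP1 and MYC were the 2 of 21 immediate early genes that passed, in opposite directions (0.71% of all genes passed), and the list's median was 0.19. The FOXO list holds transcription factors repressed by insulin and growth factor signals, and their targets. It had 0 of 20 past limma's test, where 0.71% of all genes passed, and a median of 0.36. At an unadjusted p of 0.05 it had 7 higher and 0 lower, against 575 and 985 of all 10706 genes. Its genes with the smallest p, TXNIP and PDK4, had 0.37 and 1.20 (adjusted p 0.108 and 0.109).

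Further genes that fell encode signalling proteins and regulators. CAMK1D, a calcium and calmodulin dependent kinase gene, had 334, 177, 366 and 404 with estradiol, 109.9, 99.0, 125 and 128 with tamoxifen and 236 to 429 in the controls. The estradiol arrays were thus in the range of the controls or below it, and the change with tamoxifen was -1.38 (SE 0.27, limma adjusted p = 0.0307). GFRA2, a receptor for the neurotrophic factor neurturin, had 354, 365, 312 and 346 with estradiol and 198, 151, 145 and 76.1 with tamoxifen, a change of -1.32. TCF7 had 294, 224, 164 and 323 with estradiol and 163, 72.0, 77.7 and 78.8 with tamoxifen, where tamoxifen 1 nearly reached the lowest estradiol array, and its other probe set had -0.53. DTX4, a ubiquitin ligase of the Notch pathway, fell by 1.59 with overlapping arms and was the 1 call among 17 Notch genes (5.88% lower, against 0.56% of all genes). PHLDA1 fell by 1.22, with 3 of its 4 probe sets past the threshold. The imprinted non-coding RNA H19 fell by 0.81, and the probe sets of LOC708576 changed by -1.59 and -1.52.

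The list of estrogen-induced genes held 0 calls. Of 29 measured 0 passed in limma, where 0.71% of all genes did, so 0 calls does not set this list apart. At an unadjusted p of 0.05, 3 were lower and 1 higher, against 985 and 575 of all 10706 genes. The list's median was 0.037. MYC, LOXL2 and VCAM1, outside this list, passed and stood above control with estradiol, as given above. PGR, the progesterone receptor gene and a classic estrogen target, had 1399, 1302, 1527 and 1796 with estradiol and 1324, 1063, 1054 and 1085 with tamoxifen. The change was -0.41 (95% interval -0.88 to 0.07, adjusted p = 0.475), and tamoxifen 1 overlapped the estradiol arrays. IGF1, a stromal growth factor gene, had 8403, 9217, 6074 and 8439.8 and 9291, 6094, 8909 and 7786, with overlapping arms and controls at 2521 to 3969. Its change was -0.0039 (95% interval -0.38 to 0.37), so a difference above about 0.38 in either direction lies outside the interval. GREB1, an estrogen receptor cofactor and target, had 1406, 833, 1579 and 1199 with estradiol and 852, 622, 654 and 558 with tamoxifen, a value of -0.88 (95% interval -1.48 to -0.27, adjusted p = 0.197).

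IHH, the epithelial hedgehog ligand gene, and the transcription factor gene MYB had 0.50 (95% interval -0.15 to 1.14) and 0.60 (95% interval -0.064 to 1.26). The trefoil peptide gene TFF3 and the binding protein gene IGFBP1 had 0.82 (95% interval 0.062 to 1.58) and 0.83 (95% interval -0.64 to 2.29). OLFM1 and SGK1, with the smallest p of the estrogen-induced list beside GREB1, had -1.10 and -0.85 (adjusted p 0.0944 and 0.121). A p above the threshold does not show that both drugs give the same level: the intervals of PGR, IHH, MYB, TFF3 and IGFBP1 hold differences past 0.5 in at least 1 direction.

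Among steroid receptor and coregulator genes 1 passed, an orphan receptor gene, and not ESR1 or PGR. ESR1, the estrogen receptor alpha gene, had 495, 626, 568 and 466 with estradiol and 642, 397, 488 and 489.6 with tamoxifen, with a change of -0.11 (95% interval -0.55 to 0.34). The arms overlapped, with tamoxifen 1 highest of all. Of 15 steroid receptor and coregulator genes NR2F1, an orphan nuclear receptor, fell by 0.59 (SE 0.13, limma adjusted p = 0.0454), and 14 did not pass; its share of 6.67% compares with 0.56% of all genes. EGFR, the epidermal growth factor receptor gene, had -0.47 (95% interval -0.88 to -0.056, adjusted p = 0.311). In limma 0 of 17 IGF axis genes passed (1 lower and 2 higher at an unadjusted p of 0.05), 0 of 15 hedgehog genes (1 and 0) and 0 of 9 EGF family genes (1 and 0).

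**Figure D4:**
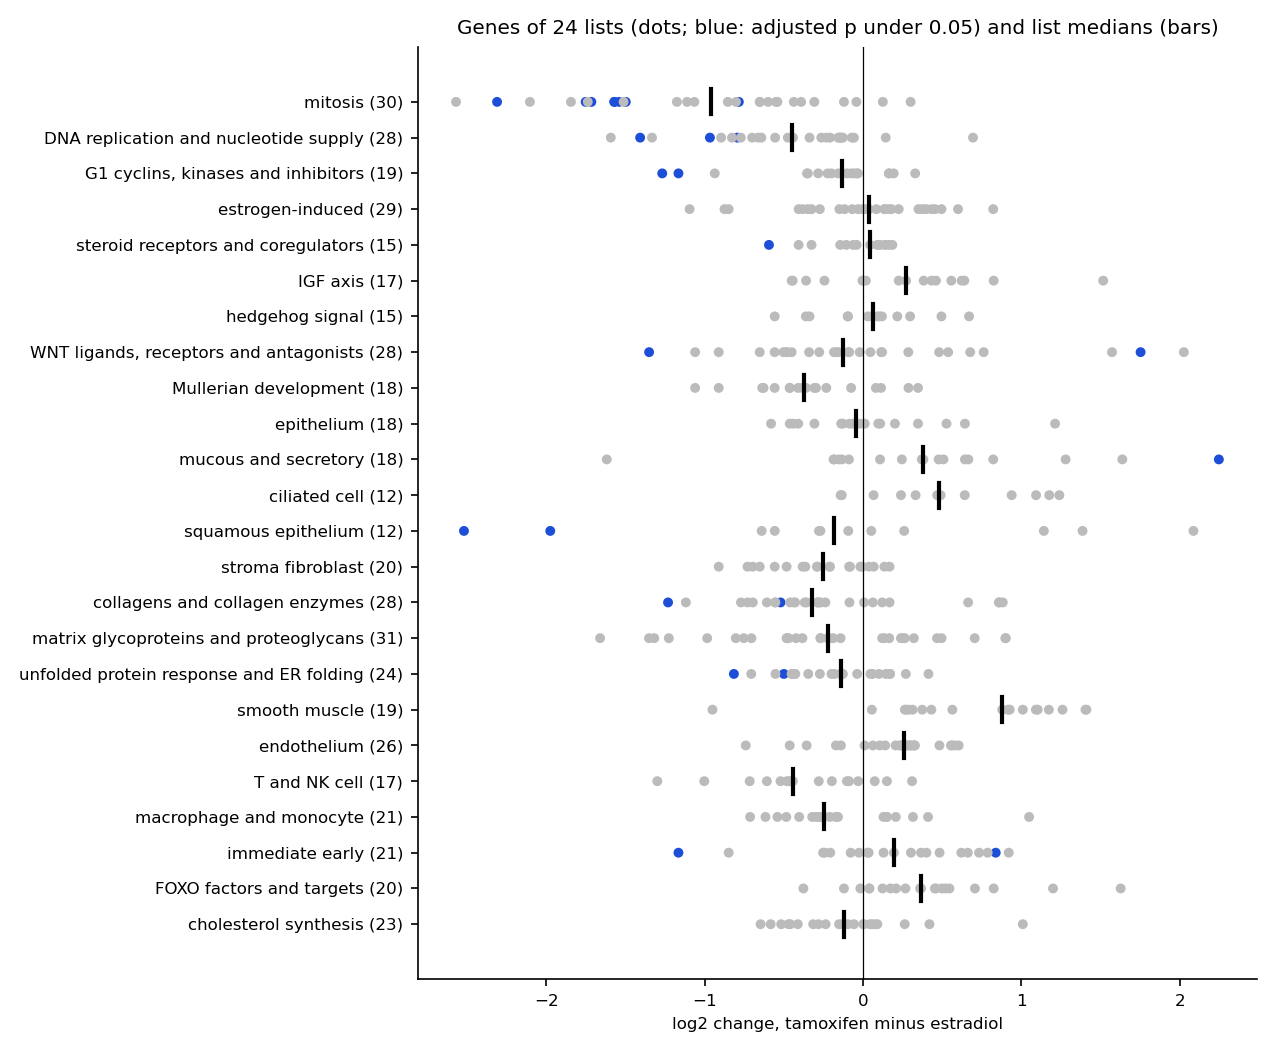
Dots are the log2 changes, tamoxifen minus estradiol (horizontal axis), of the measured genes of 24 lists (number measured in brackets); blue marks an adjusted p under 0.05 and black bars the list medians. Mitosis genes are shifted to the left, with a median of -0.96, while the estrogen-induced genes centre near 0.

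Cell type marker lists held few calls, and single arrays stood apart in them. The smooth muscle score was 0.083, 0.16, 0.29 and -2.74 in estradiol 1 to 4 and -0.78, 0.69, -0.05 and 0.62 in tamoxifen 1 to 4, so estradiol 4 lay far below every other array and tamoxifen 1 was lowest of its arm. Of 19 muscle genes 0 passed in limma (0 lower and 2 higher at an unadjusted p of 0.05), and 18 had values above 0. The list's median of 0.88 was 0.19 without these 2 arrays, where 1 gene rose, the integrin gene ITGA8, at 1.92 against 1.41 with all arrays (adjusted p 0.0972). The muscle intermediate filament gene SYNM had 0.92. Without both arrays 60 genes passed, 46 lower and 14 higher, of which 36 were among the 76.

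The epithelium score was -0.073, 0.39, -0.30 and 0.69 with estradiol and 0.87, -0.40, 0.32 and 0.011 with tamoxifen, with full overlap; 0 of 18 genes passed in limma (0 lower and 1 higher at an unadjusted p of 0.05), and the median was -0.042. Stroma fibroblast scores were 0.52, 0.44, 0.32 and 0.23 and -0.028, 0.12, 0.10 and 0.21, higher on each estradiol array than on any tamoxifen array, with controls between -0.63 and -0.45. Of 20 stroma genes 0 passed in limma, with a median of -0.25. At an unadjusted p of 0.05, 6 were lower and 1 higher, against 985 and 575 of all 10706 genes. WNT5A, a stromal WNT ligand gene, had -0.91 (adjusted p 0.107). Without estradiol 4 and tamoxifen 1 the changes of LOXL2 and COL15A1 were -1.20 and -0.52, with adjusted p of 0.0574 and 0.0933. The stroma list shares members with the collagen and matrix glycoprotein lists, COL1A1 among them, so its score is not separate from those results. The part of the stroma score in the matrix gene results was not tested.

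T and NK cell scores were 0.15, 0.34, 0.19 and -0.086 with estradiol and -0.36, -0.03, -0.14 and -0.33 with tamoxifen, where estradiol 4 overlapped the tamoxifen arrays. Of 17 such genes 0 passed in limma, and the median was -0.44. At an unadjusted p of 0.05, 4 were lower and 0 higher, against 985 and 575 of all 10706 genes. The cytotoxic granule gene GZMB had 1135, 1704, 682 and 718 with estradiol and 328, 488, 409.8 and 382 with tamoxifen, which do not overlap, and a value of -1.30 (adjusted p = 0.202). The helper T cell receptor gene CD4 had -0.61 (adjusted p = 0.187). The arm means of this score were 0.15 with estradiol and -0.21 with tamoxifen, lower with tamoxifen as VCAM1 and TCF7 were. VCAM1 was lowest of its arm in estradiol 2, where the score was highest, and TCF7 was highest of its arm in estradiol 4 and tamoxifen 1, where the score was lowest. The VCAM1 change was -1.59 without estradiol 4 and tamoxifen 1. The part of T and NK cell content in the VCAM1 and TCF7 changes was not tested. Endothelial genes had a median of 0.26, with 0 of 26 past limma's test (2 lower and 3 higher at an unadjusted p of 0.05), the sialomucin gene EMCN at 0.60 and the receptor gene TIE1 at 0.48. Ciliated cell genes, scored highest in tamoxifen 1 at 1.47, had 0 calls in limma and 0 genes at an unadjusted p of 0.05 among 12.

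**Figure D5:**
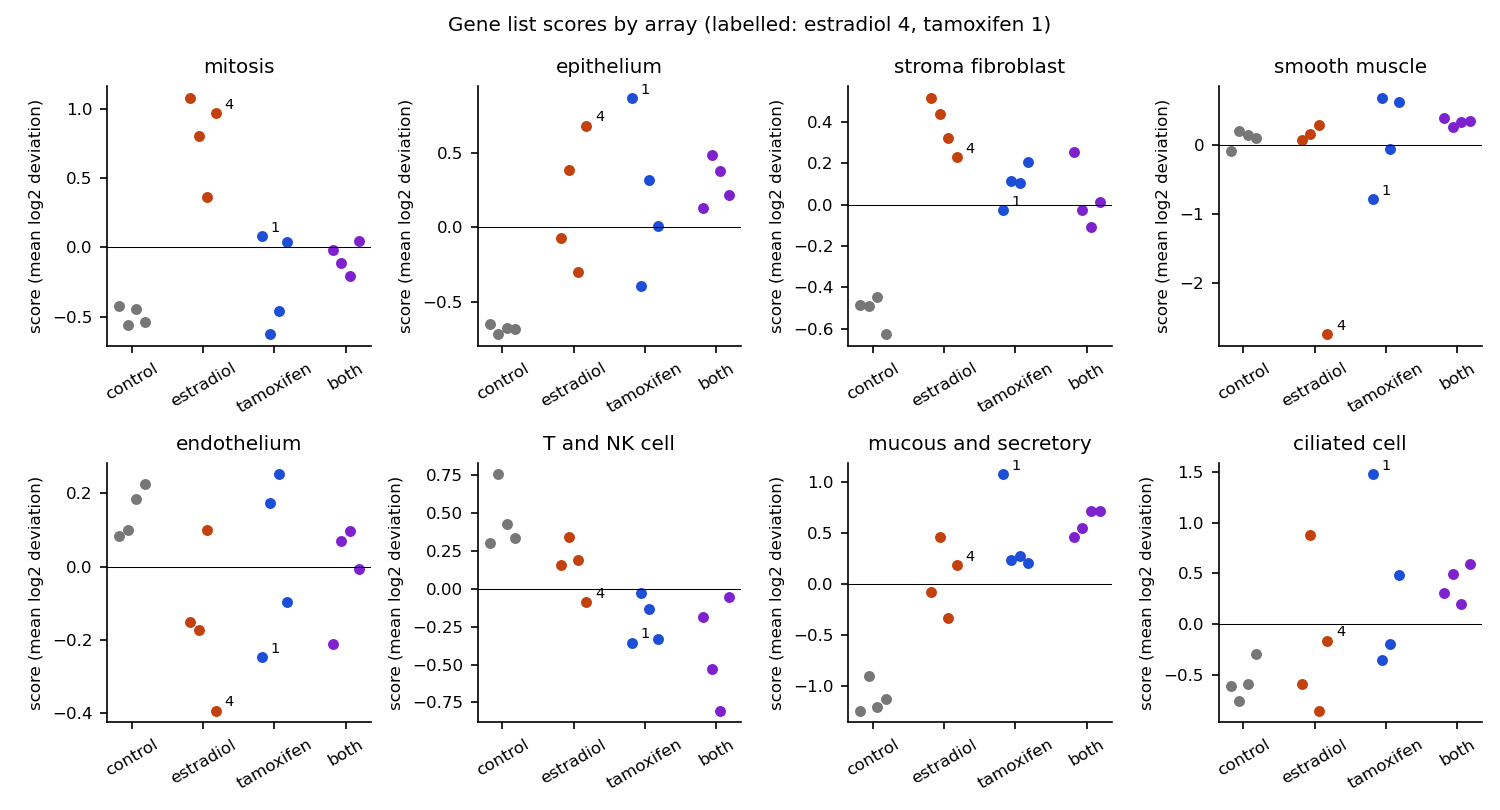
Each panel plots the score of 1 gene list (vertical axis, mean log2 deviation from the mean over 16 arrays) for the 4 arrays of each arm, with estradiol 4 and tamoxifen 1 numbered. Mitosis scores of the estradiol arrays lie above those of all tamoxifen arrays, smooth muscle is lowest in estradiol 4 at -2.74, and epithelium scores of both arms overlap.

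Cholesterol synthesis genes had 0 of 23 past limma's test and a median of -0.12. At an unadjusted p of 0.05, 4 were lower and 1 higher, against 985 and 575 of all 10706 genes. The genes with the smallest p had values of opposite sign: the mevalonate pathway gene MVD had -0.58 and the sterol reductase gene TM7SF2 1.01, with adjusted p of 0.103 and 0.166. In all, 34 of the 47 lists held no gene past the threshold and 13 held at least 1.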

How the data were processed

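The deposited values are signal intensity, linear and not logged, with a lowest value of 0.0242 and a highest of 23401 over 52865 probe sets. Per the submitters' processing notes the authors used GCOS, Affymetrix Expression Console and MAS5; versions and scaling target are not given in the sources used here. With a trimmed mean of 250.0 on each of 16 arrays, they were not scaled again. The 99 control probe sets and the 40% dimmest of the rest (mean log2 under 5.36 over all arrays) were left out, without present or absent calls.

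A mean for each of the 4 arms was fitted to log2(signal + 4.80) with limma 3.58.1 in R 4.3.3 (eBayes with trend, 12 residual degrees of freedom, 4.80 being the 10th percentile of all values). Adjusted p is Benjamini-Hochberg over 31660 probe sets. The fit was tested on simulated data with independent normal noise and the same spread in all arms. Of 50 probe sets per size of change, 10% passed at a log2 change of 0.5, 60% at 1 and 98% at 2. The arms of the real data differ in spread, so these shares need not hold for them. Of the probe sets that are not controls, 24956 carry 1 symbol, 361 carry several and 27449 carry none. Cross-hybridisation of cynomolgus transcripts was not examined, and no sequences or positions were used here.

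Comparison, members and the 47 gene lists (1275 symbols, 937 annotated, 773 tested) were chosen with earlier results of these data known. Named genes followed a rule: the 15 highest and 15 lowest changes among called genes without overlap, called list members, a fixed set and tissue markers. The rule also covered the members with the smallest p of lists with few calls. Those members are given for only some of these lists. Outside this rule, CENPN, GTSE1, KIFC1, BORA, MYBL2, SKP2, ADAMTS7, ADAMTS4, PCOLCE, FKBP10, PHLDA1, H19, CCNB1, CCNB2, CDK1, FOXM1, TYMS, CCNE2, FN1, TNC, TGFBI, COL1A1, LGALS7B, SLPI and LYZ were chosen after their values were seen. Promoter motifs were planned and not run.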

Additional observations from a re-analysis of the deposited data

Results flagged for a closer look

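In 220 groups of 4 arrays (100 genes and 10 scores in the estradiol and the tamoxifen arm), 15 had 1 array far from the other 3 by Dixon's criterion; about 1 in 20 groups does so by chance. Values of genes are on the log2(signal + 4.80) scale.

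Estradiol 3 was low in cell division genes, with KIF4A at 5.99 (others 7.06 to 7.20), TOP2A at 7.06 (8.90 to 8.95), CCNB1 at 7.33 (8.91 to 9.08) and E2F2 at 6.32 (6.98 to 6.99). The same array had TIE1 at 9.15 and MVD at 7.79. Tamoxifen 1 stood apart in TCF7 at 7.39, PGR at 10.4, TXNIP at 13.1 and the mucous and secretory score at 1.07. Tamoxifen 4 was high in E2F2 at 5.82, and tamoxifen 3 in the type I interferon score at 0.81. Estradiol 1 was high in SEC24D at 10.2, estradiol 2 low in DCHS2 at 6.04, and estradiol 4 low in the smooth muscle score at -2.74.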

How the results depend on the processing

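Against 180 probe sets, 60 genes lower and 16 genes higher, array weights in limma gave 718, 211 and 83, and a fit to the 8 arrays alone gave 0, 0 and 0. Leaving out 1 array gave from 0 to 618 probe sets, 0 to 205 genes lower and 0 to 74 higher. Both gene counts stayed within 1.5 times under other pseudocounts (1 and 16), no filter or one on the 60% dimmest, quantile normalization (which moved the median of all probe sets from -0.0027 to -0.0037), no trend, adjustment over named probe sets, gene means over probe sets, and without estradiol 4 and tamoxifen 1. The labels do not say whether title numbers pair animals. Deviations of same-numbered arrays correlated between -0.27 and 0.0013, and 0 of 8 arrays matched best with their own number. The highest correlation, 0.51, was of estradiol 4 with tamoxifen 1, each the lowest of its arm in smooth muscle score. Such values cannot exclude a pairing. With the replicate block 153 probe sets, 58 genes lower and 14 higher passed, 55 of them among the 76 genes.

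Of the 76 called genes, 1 turned: TPM3, not named elsewhere and picked out here after its values were seen, had -0.54 through its brightest probe set and 0.36 as the mean of its probe sets. Among the genes named in the report, directions turned in 3 that did not pass: with 1 array left out, CCND1 ran from -0.020 (tamoxifen 4) to 0.33, ESR1 from -0.23 to 0.00076 (tamoxifen 2), and IGF1 from -0.13 to 0.12, positive without estradiol 1, 2 or 4 or tamoxifen 2 or 4 (0.023, 0.068, 0.026, 0.12 and 0.0041). The 57 called genes named kept their direction in each setting that tested them (39 were tested with the filter on the 60% dimmest, 56 without estradiol 1). Why single arrays move the counts was not tested. The number of arrays, 4 per arm, and dim signals limit the precision.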
